A study of Mus musculus with 10 samples.

Results

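Loss of Tgfbr2, which encodes a chain of the TGF-beta receptor, was read in tumour-infiltrating CD4+CD25- T cells by setting every Tgfbr2-deleted sample against every Tgfbr2-sufficient sample, whether or not Il4 was present. The comparison took in all 10 libraries of the series, which stand for 8 replicates. The deleted side held 6 libraries of 4 replicates and the sufficient side 4 libraries of 4 replicates. Of 14473 genes tested, 7 passed the threshold of an adjusted p of 0.05, which is 0.0484% of them. Klrg1, Mmp9, Slc2a3, Izumo1r and Nrn1 rose in the Tgfbr2-deleted cells (5 genes, 0.0345%), and Ahr and Pmepa1 fell (2 genes, 0.0138%).

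The cells were sorted from digested breast tumours of C57BL/6 mice at 23 weeks of age, and every group carried the tumour-driving PyMT transgene and floxed Tgfbr2 (Tgfbr2fl/fl). KO cells carried ThPOKCre in addition, IL4-/-KO cells carried both ThPOKCre and loss of Il4 (Il4-/-), WT cells had no Cre and intact Il4, and IL4-/- cells were Il4-/- without Cre. Each of the 4 genotypes had 2 replicates, and each KO replicate had a first and a repeat library made separately from its RNA, which were averaged. ThPOK, encoded by Zbtb7b, is the transcription factor of the CD4 lineage, so the Cre acts in CD4 cells other than the sorted ones as well. Cre was present on the deleted side only, so the effect of Cre itself and that of Tgfbr2 loss cannot be told apart. Whether each replicate was its own mouse is not stated, so the p-values speak for the variation among these samples, some of which may be technical.

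TGF-beta ligands bind a receptor made of TGFBR1 and TGFBR2, which phosphorylates SMAD2 and SMAD3. These enter the nucleus with SMAD4 and switch on, among other genes, inhibitors of the same pathway such as Smad7, Skil and Pmepa1. In T cells the pathway is known to restrain effector differentiation and to sustain the tissue integrin gene Itgae.

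Library totals ran from 17121030 to 33802781 reads, with 12459 to 15899 genes detected. The shallower set, of 17121030 to 18479090 reads, was WT with the first KO libraries, and the others held 28003231 to 33802781, so depth followed the Il4 background except in the KO repeats. Values below are normalized counts, which are reads divided by 1 size factor per library, and 1 read was worth 0.644 to 1.47 of them. Where a gene is listed at 0, as many as 3 reads cannot be told from none, which is 1.93 to 4.41 normalized counts and covers counting error only. Fold changes are log2 differences of (normalized count + 1) between deleted and sufficient replicates with the Il4 background as a covariate, given ± SE, and p-values are those of limma, two-sided, with Benjamini-Hochberg adjustment over all genes tested.

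The labels were read against the targeted genes first. Tgfbr2 had 6730 and 7623 normalized counts in KO cells and 7762 and 8205 in IL4-/-KO cells, against 7876 and 7894 in WT cells and 13816 and 12544 in IL4-/- cells. IL4-/-KO replicate 2 lay within the range of the sufficient replicates, the other deleted replicates lay below it, and the difference of -0.43 ± 0.21 did not pass the test (limma adjusted p = 0.544). The deposited value is a count per gene, and a transcript that lacks its floxed part may still be counted, so this value is no check of the deletion. Il4 had 389 and 380 normalized counts in KO cells and 98.7 and 39.7 in IL4-/-KO cells, against 107 and 276 in WT cells and 97.2 and 75.4 in IL4-/- cells. Its reads in the Il4-deficient cells likewise do not say which part of the gene they came from.

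Klrg1 encodes an inhibitory lectin-like receptor of terminally differentiated effector T cells and NK cells (chr6:122270596-122282882, minus strand; mm10). It had 2860 and 5210 normalized counts in KO cells and 7198 and 7600 in IL4-/-KO cells, against 339 and 206 in WT cells and 428 and 515 in IL4-/- cells. The lowest deleted replicate lay far above the highest sufficient one. The mean was 5717 ± 2172 on the deleted side and 372 ± 132 on the sufficient side (SD, n = 4 each). Klrg1 rose by 3.92 ± 0.27 on the log2 scale (limma adjusted p = 0.0019) and passed in all 27 alternatives run, which gave 3.76 to 4.16. Of 5 tested NK cell markers, 3 were higher and 2 lower, and Klrb1c, the NK1.1 gene, had 309 to 1029 normalized counts in deleted and 57.3 to 377 in sufficient replicates (2.45 ± 0.64, with overlap). The NK receptor gene Ncr1 stayed at 0 to 58.7 in deleted and 0 to 23.5 in sufficient replicates, and the part of NK cell RNA in the Klrg1 result was not tested. In bulk RNA of this kind, fewer cells that express a gene and less RNA of it per cell cannot be told apart.

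Mmp9 encodes a secreted gelatinase that cuts basement membrane collagen (chr2:164940780-164955850, plus strand). Its values were 3339 and 8204 normalized counts in KO cells and 4714 and 3726 in IL4-/-KO cells, against 92.2 and 108 in WT cells and 276 and 249 in IL4-/- cells. Sufficient cells of either background held far fewer Mmp9 reads than any deleted replicate. Mmp9 rose by 4.85 ± 0.42 (limma adjusted p = 0.00706). It lost the call without KO replicate 1 (adjusted p = 0.0614), and 24 of the 27 alternatives kept it. Neutrophils and macrophages also make Mmp9. The summed level of 9 neutrophil markers, most of it Lcn2 and Il1b, which other cells also make, lay between 1982 and 32445 normalized counts in deleted replicates and between 2259 and 66223 in sufficient ones. Of the 7 tested, 5 were higher and 2 lower, with a median of 1.59 and none at an unadjusted p under 0.05. S100a9, a calcium-binding protein gene abundant in neutrophils, ran from 8.91 to 2104 in deleted and from 0 to 190 in sufficient replicates, and Ly6g, a defining surface marker gene, from 0 to 160.0 in deleted and from 0 to 5.27 in sufficient ones, both highest in KO replicate 1. The part of neutrophil RNA in the Mmp9 result was not tested.

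Slc2a3 encodes the glucose transporter GLUT3 (chr6:122727809-122801640, minus strand). KO cells held 11519 and 9899 normalized counts and IL4-/-KO cells 6945 and 6752, against 1433 and 2761 in WT cells and 1614 and 1911 in IL4-/- cells. The groups did not overlap, and the KO replicates were the highest. It rose by 2.19 ± 0.25 (limma adjusted p = 0.0349). Of the 8 fits that left out a replicate, only those without WT replicate 1 or WT replicate 2 kept the call, and the other 6 gave an adjusted p of up to 0.181.

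Izumo1r encodes a folate receptor family protein, also called FR4 or JUNO, that is abundant on regulatory and anergic CD4 T cells (chr9:14885814-14903949, minus strand). The values were 3472 and 4226 normalized counts in KO cells and 3172 and 2844 in IL4-/-KO cells, against 789 and 1084 in WT cells and 1107 and 821 in IL4-/- cells. Replicates of a side lay close together, with a mean of 3429 ± 591 in deleted and 950.4 ± 168 in sufficient cells (SD, n = 4 each). Izumo1r rose by 1.85 ± 0.22 (limma adjusted p = 0.0413), and its adjusted p was 0.0697 to 0.198 when any of the 8 replicates was left out. Its promoter is shown as an example from the genes that rose (RefSeq, GRCm38.p6, 250 bases before to 50 after the start site, minus strand, chr9:14903718-14904017). Capitals mark CAGAC, the SMAD-binding core motif, or its reverse complement GTCTG.
Izumo1r promoter: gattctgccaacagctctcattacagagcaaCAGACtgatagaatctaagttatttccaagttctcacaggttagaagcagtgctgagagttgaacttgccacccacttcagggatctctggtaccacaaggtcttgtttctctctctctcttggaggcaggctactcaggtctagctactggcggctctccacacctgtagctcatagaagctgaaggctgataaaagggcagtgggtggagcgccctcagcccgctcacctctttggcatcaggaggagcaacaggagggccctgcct
It holds 1 CAGAC match, 219 bases before the start site, and no GCGTG, the core motif bound by the aryl hydrocarbon receptor. Searched on both strands, CAGAC occurs in 49.6% and GCGTG in 32.4% of the 32851 mouse promoters of this length.

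Nrn1 encodes neuritin, a small membrane-anchored protein (chr13:36725361-36735131, minus strand). It stood at 916 and 1167 normalized counts in KO cells and 2174 and 1334 in IL4-/-KO cells, against 92.2 and 34.3 in WT cells and 238 and 179 in IL4-/- cells. The difference of 3.60 ± 0.44 passed the test (limma adjusted p = 0.0413), and of the 8 fits that left out a replicate only the fit without WT replicate 2 kept it, the rest giving up to 0.198.

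Ahr, which encodes the ligand-activated aryl hydrocarbon receptor, was the gene with the smallest p among those that fell (chr12:35497974-35535038, minus strand). It had 681 and 685 normalized counts in KO cells and 595 and 402 in IL4-/-KO cells, against 3209 and 4511 in WT cells and 2437 and 3200 in IL4-/- cells. Every deleted replicate was below every sufficient replicate, and the single KO libraries, at 439.6 to 922, were as well. Ahr fell by 2.49 on the log2 scale, with an SE of 0.23 (limma adjusted p = 0.0096). It was kept in 19 of the 27 alternatives. Among fits that left out a replicate, the call was lost without KO replicate 1, KO replicate 2 or IL4-/-KO replicate 2. It was also lost without IL4-/- replicate 1 or IL4-/- replicate 2, and the adjusted p in these fits reached 0.0837. Repeat KO libraries only, no variance trend, and leaving out WT replicate 1 with IL4-/- replicate 2 lost it as well. Over all alternatives the limma adjusted p of Ahr reached 0.23.

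Pmepa1 encodes a membrane protein that holds back SMAD signalling and is itself induced by TGF-beta (chr2:173224458-173276533, minus strand). It had 629 and 1275 normalized counts in KO cells and 400.2 and 472 in IL4-/-KO cells, against 6580 and 5748 in WT cells and 2598 and 1469 in IL4-/- cells. The first KO libraries held 960 and 1903, against 297 and 647 in the repeat libraries of the same RNA. WT cells were in the shallower library set only, so the averaged KO values mix library sets while the WT values do not. Il4-deficient cells were in the deeper set only. Between WT and IL4-/- cells, library set and Il4 background therefore cannot be told apart for Pmepa1. The first library of KO replicate 2 alone, at 1903, overlapped the IL4-/- cells, while the averaged replicates did not. Pmepa1 fell by 2.47, with an SE of 0.31 (limma adjusted p = 0.0413). With first KO libraries only, and with repeat ones only, the call was lost. Leaving out any of the 8 replicates gave an adjusted p of 0.0628 to 0.199, and 8 of the 27 alternatives kept the call.

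**Figure D1:**
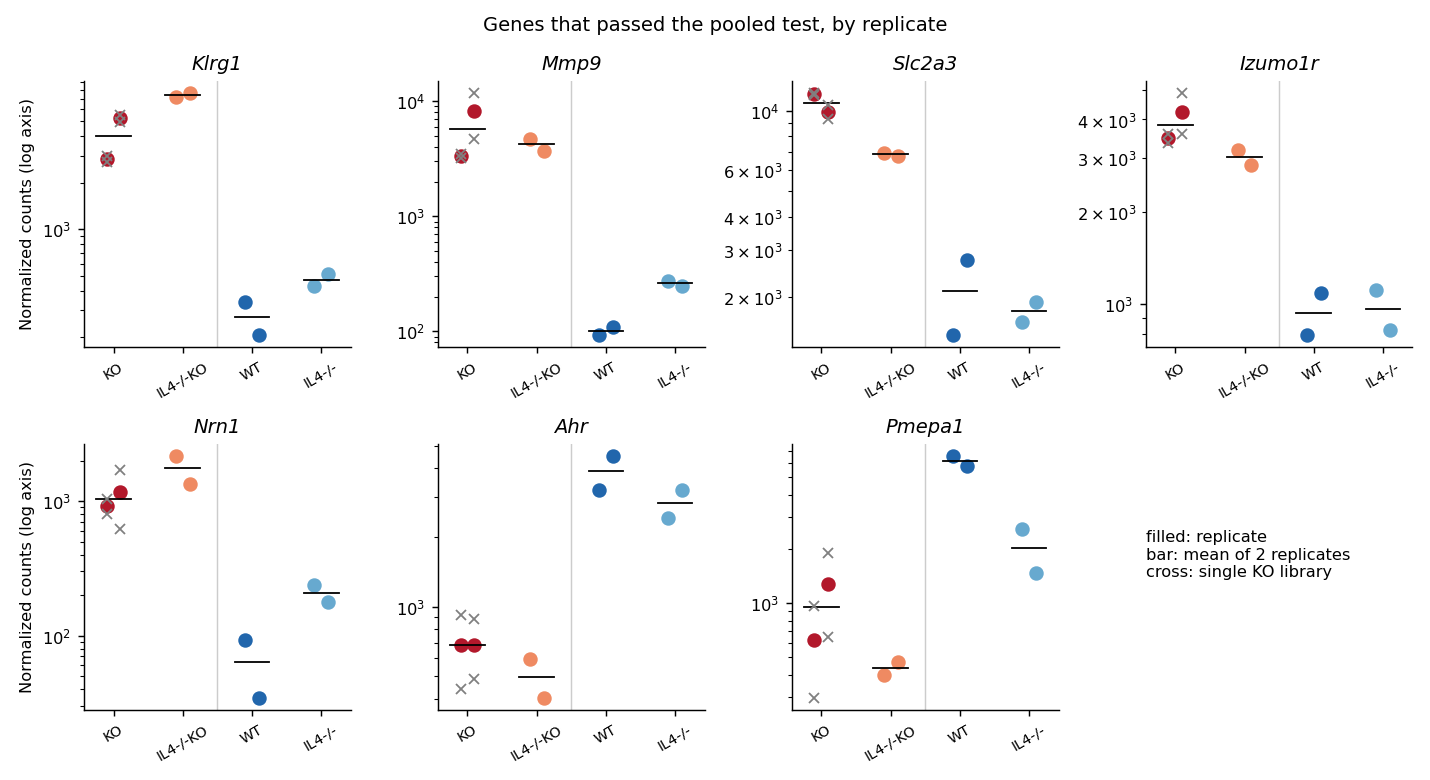
Normalized counts (log axis) of the 7 genes that passed the pooled test, with 1 filled point per replicate, a bar at the mean of 2 replicates, and crosses for the single libraries behind each KO replicate. KO and IL4-/-KO replicates stand above WT and IL4-/- for Klrg1 (2860 to 7600 against 206 to 515), Mmp9, Slc2a3, Izumo1r and Nrn1 and below them for Ahr (402 to 685 against 2437 to 4511) and Pmepa1.

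The calls were set against the effect within each background, from a fit of the 4 genotype means. For Klrg1 the difference was 3.86 between KO and WT and 3.97 between IL4-/-KO and IL4-/-. Ahr gave -2.48 with Il4 intact and -2.51 without it. The widest gap among the 7 genes was that of Mmp9, 5.70 between KO and WT and 3.99 between IL4-/-KO and IL4-/-, with an unadjusted interaction p of 0.0322 and an adjusted p of 0.988. No gene passed the limma test of the interaction (0.00% of genes), 510 had an unadjusted p under 0.05 (3.52%), edgeR called 0 and DESeq2 called 39.

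**Figure D2:**
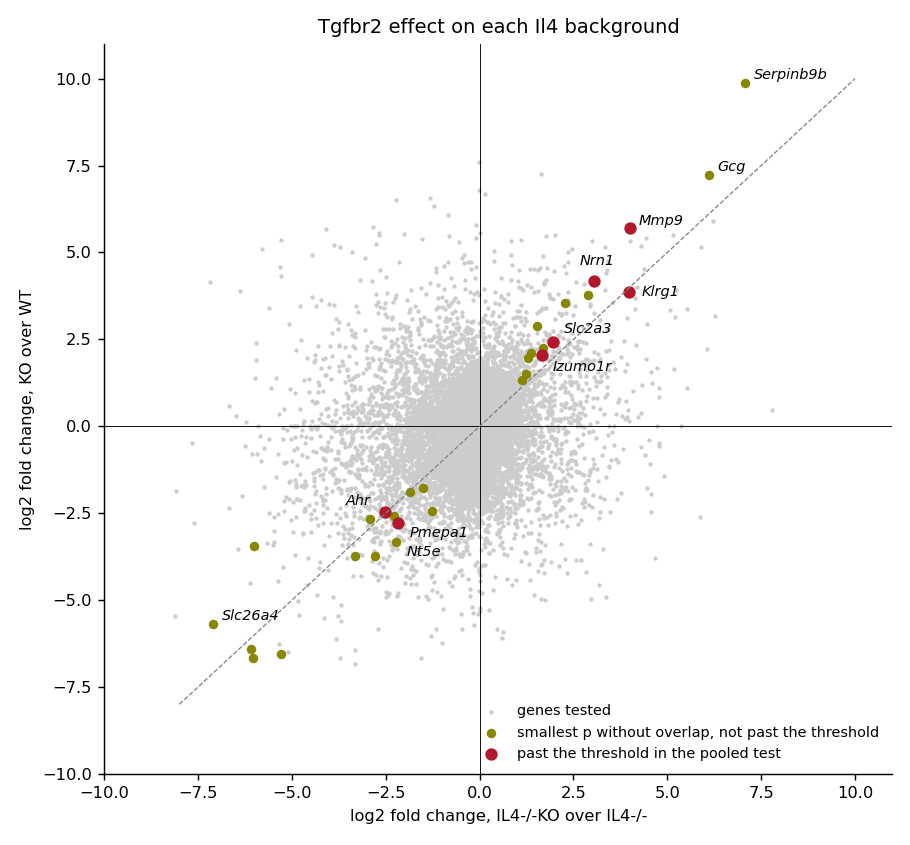
Each point is a tested gene, placed by its log2 fold change of IL4-/-KO over IL4-/- (horizontal) and of KO over WT (vertical), and the dashed line marks equal change. Red points are the 7 genes past the threshold, from Mmp9 at 3.99 and 5.70 to Ahr at -2.51 and -2.48, and olive points are the other genes with the smallest p among those without overlap.

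Beyond these, 1408 genes (9.73%) had an unadjusted p under 0.05, of which 682 were higher in deleted cells (4.71% of genes) and 726 lower (5.02%). Quantile normalization moved the median difference of all genes to 0.04, against -0.08 here, and split them into 808 higher and 579 lower. The replicates of the sides did not overlap for 722 genes (4.99%), with the deleted side above in 432 (2.98%) and below in 290 (2.00%). None of the genes described from here on, other than those 7, passed the adjusted threshold, and their values are given as measured. The first beyond it were Apol9b (adjusted p = 0.0695), Nt5e (0.0818) and Gcg (0.0846). The count of calls also differed by tool on the recovered reads, with 3 genes by edgeR (0.0207%) and 257 by DESeq2 (1.78%), and both included Klrg1, Mmp9 and Ahr.

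The list of 16 TGF-beta feedback regulators and target genes lay low in deleted cells. Of the 16 tested members, 13 were lower and 3 higher, with a median difference of -1.47 beside -0.08 for all genes, and 7 were lower at an unadjusted p under 0.05 against 5.02% of all genes. Their summed level was 12345 to 26452 normalized counts in deleted replicates and 36207 to 67208 in sufficient ones, without overlap. Skil, a SMAD co-repressor induced by the pathway, had 2484 and 1676 normalized counts in KO cells and 3497 and 1767 in IL4-/-KO cells, against 7125 and 20725 in WT cells and 11838 and 12174 in IL4-/- cells. Its difference was -2.42 ± 0.36 (limma adjusted p = 0.114). Smad7, the inhibitory SMAD, had 847 and 2000 in KO cells and 1137 and 669 in IL4-/-KO cells, against 2156 and 3318 in WT cells and 4797 and 4199 in IL4-/- cells, a difference of -1.70 ± 0.39. Ldlrad4, which keeps SMAD2 and SMAD3 from the receptor, gave -1.94 ± 0.35, also without overlap.

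Ski, the co-repressor related to Skil, had 1920 and 2899 normalized counts in KO cells and 538 and 641 in IL4-/-KO cells, against 6754 and 8607 in WT cells and 1537 and 1232 in IL4-/- cells. The sides overlapped, with IL4-/- cells below KO cells. The repeat KO libraries held 587 and 1350, against 3254 and 4448 in the first libraries of the same RNA. Ski thus differed between library sets with Il4 intact. WT cells were in the shallower set only and Il4-deficient cells in the deeper set only. Between WT and IL4-/- cells, library set and Il4 background therefore cannot be told apart for Ski. The difference was -1.46 ± 0.23 (limma adjusted p = 0.124), and it ran from -2.16 with repeat KO libraries only to -1.12 with first ones only. Smurf2, a ubiquitin ligase that acts on the receptor and SMADs, had 668 and 369.8 in KO cells and 532 and 638 in IL4-/-KO cells, against 896 and 2738 in WT cells and 1844 and 1143 in IL4-/- cells. It did not overlap between the sides, at -1.49 ± 0.39. Promoters of these members are shown as examples of the feedback genes (RefSeq, GRCm38.p6). Ski lies at chr4:155222486-155222785 and Smurf2 at chr11:106920666-106920965, both on the minus strand, and capitals again mark CAGAC or GTCTG.
Ski promoter: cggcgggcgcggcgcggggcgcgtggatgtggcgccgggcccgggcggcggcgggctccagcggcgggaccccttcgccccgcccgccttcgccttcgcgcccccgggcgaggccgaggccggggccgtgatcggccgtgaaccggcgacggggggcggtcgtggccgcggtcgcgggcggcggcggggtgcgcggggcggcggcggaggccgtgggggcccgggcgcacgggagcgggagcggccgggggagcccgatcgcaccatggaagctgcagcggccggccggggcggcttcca
Smurf2 promoter: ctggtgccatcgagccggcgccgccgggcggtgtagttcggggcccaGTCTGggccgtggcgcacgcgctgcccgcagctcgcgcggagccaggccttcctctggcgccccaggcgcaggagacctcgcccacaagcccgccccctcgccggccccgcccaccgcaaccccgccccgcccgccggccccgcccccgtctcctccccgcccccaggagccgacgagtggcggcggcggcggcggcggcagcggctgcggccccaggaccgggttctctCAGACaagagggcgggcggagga
The Smurf2 stretch holds 2 CAGAC matches, at 203 bases before and 28 after the start site, and that of Ski holds none. Both are rich in G and C, at 80.3% and 85.3%.

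Itgae, which encodes the CD103 integrin chain, had 146 and 493 normalized counts in KO cells and 1878 and 395 in IL4-/-KO cells, against 1749 and 11950 in WT cells and 5088 and 2701 in IL4-/- cells. Its difference was -3.09 ± 0.77 (limma adjusted p = 0.31), with an overlap of 1 deleted replicate with WT replicate 1. The ubiquitin ligase gene Smurf1 (-0.17), the pseudoreceptor gene Bambi (-0.18), the extracellular matrix gene Tgfbi (0.05), the cell cycle inhibitor gene Cdkn2b (0.14) and the SMAD co-repressor genes Tgif1 (-0.57) and Tgif2 (0.51) had an unadjusted p of 0.133 or more. Signs of Smurf1, Bambi, Tgfbi and Cdkn2b turned in some alternatives. Smad6 and Ctgf varied too much among replicates of a side to be placed. Ctgf, which epithelial and stromal cells express, ran from 123 to 5903 in deleted and from 369.7 to 14417 in sufficient replicates.

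**Figure D3:**
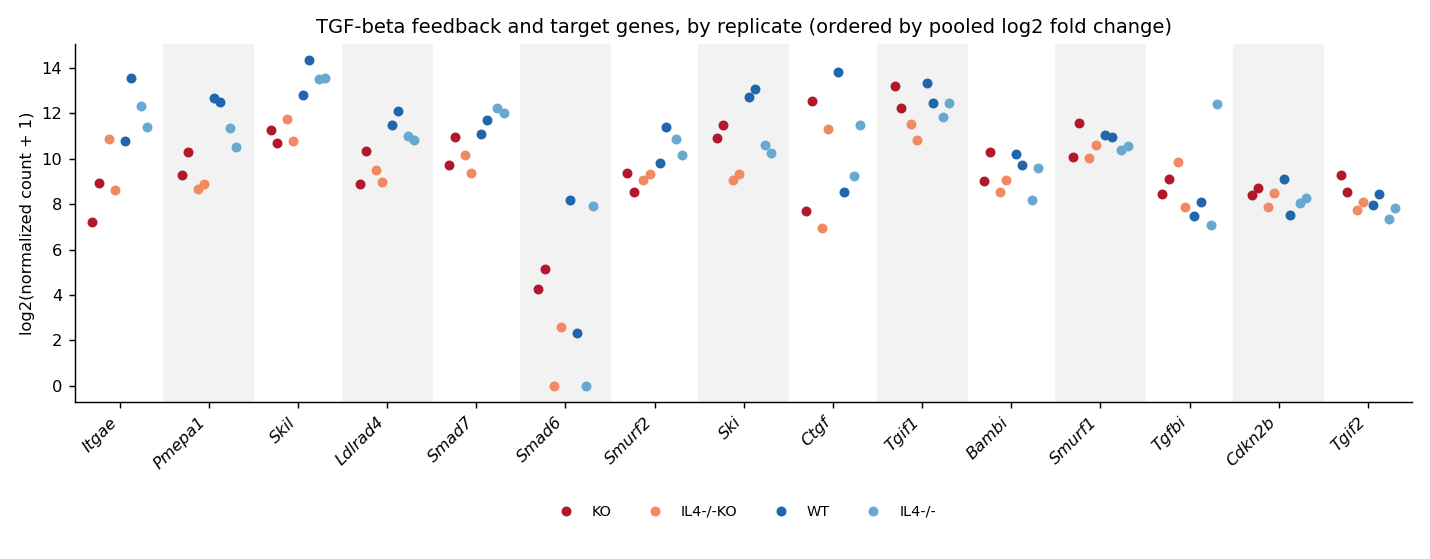
Level of TGF-beta feedback and target genes as log2(normalized count + 1), with 1 point per replicate and genes ordered by their pooled log2 fold change. Pmepa1, Skil, Ldlrad4, Smad7 and Smurf2 show no overlap between KO or IL4-/-KO and WT or IL4-/-, while Ski does. Of all genes, 2.00% were lower without overlap.

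Among 17 genes of TGF-beta ligands, receptors, SMADs and ligand activation, 12 were lower and 5 higher, with a median of -0.16 that came to 0.30 without WT replicate 1 and IL4-/- replicate 2. Tgfbr3, the co-receptor betaglycan, had 170 and 365 normalized counts in KO cells and 152 and 453 in IL4-/-KO cells, against 1031 and 2431 in WT cells and 1954 and 2075 in IL4-/- cells. It did not overlap, at -2.80 ± 0.44 (limma adjusted p = 0.124). The signal transducer gene Smad3 gave 0.66 ± 0.26 and Lrrc32, which tethers latent TGF-beta to the cell surface, 1.24 ± 0.45. Tgfb1, the ligand gene, was picked out after its values were seen. It had 4600 and 6370 normalized counts in KO cells and 2650 and 2813 in IL4-/-KO cells, against 1606 and 1851 in WT cells and 3413 and 3881 in IL4-/- cells. Its difference was 1.65 with Il4 intact and -0.41 without it, with an unadjusted interaction p of 0.00092 and an adjusted p of 0.988.

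Of 8 tested genes of the AHR pathway, 6 were lower and 2 higher, with a median of -1.21, which came to -0.05 without WT replicate 1 and IL4-/- replicate 2. Tiparp, a target gene that represses AHR, had 1388 and 609.5 normalized counts in KO cells and 3342 and 1752 in IL4-/-KO cells, against 1876 and 5707 in WT cells and 2928 and 4313 in IL4-/- cells, a difference of -1.19 ± 0.47. Arnt, the partner of AHR, gave -0.14 ± 0.23. The classical target Cyp1a1 reached at most 41.9 counts in any replicate. Nqo1, Cyp1b1 and Il22 were spread widely, with SEs of 1.13, 2.39 and 1.80 on the log2 scale.

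Genes of extracellular adenosine were led by its producing enzyme. Nt5e, which encodes CD73, had 277 and 646 normalized counts in KO cells and 2556 and 1114 in IL4-/-KO cells, against 3669 and 4897 in WT cells and 8520 and 7293 in IL4-/- cells. The sides did not overlap, although IL4-/-KO cells held more than KO cells. The difference was -2.77 ± 0.39 (limma adjusted p = 0.0818), and it ran from -3.12 to -2.42 with each replicate left out in turn. Adora2a, the adenosine receptor gene, stood the other way, with 4177 and 5244 in KO cells and 2216 and 2051 in IL4-/-KO cells, against 689 and 1549 in WT cells and 1232 and 1047 in IL4-/- cells, at 1.54 ± 0.34 (adjusted p = 0.258). Of the 10 genes of the list, 6 were higher and 4 lower, and its median was 0.26. The Nt5e promoter (RefSeq, GRCm38.p6, plus strand, chr9:88327359-88327658) is given for a gene close to the threshold on the lower side, with CAGAC or GTCTG in capitals.
Nt5e promoter: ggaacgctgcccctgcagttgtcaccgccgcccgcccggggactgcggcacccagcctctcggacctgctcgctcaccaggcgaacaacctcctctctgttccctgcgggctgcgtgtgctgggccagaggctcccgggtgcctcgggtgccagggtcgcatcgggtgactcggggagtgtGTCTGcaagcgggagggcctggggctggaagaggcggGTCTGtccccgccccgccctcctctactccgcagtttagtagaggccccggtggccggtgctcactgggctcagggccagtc
It holds 2 matches, 69 and 32 bases before the start site, and 1 GCGTG.

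Other genes that separated the sides, averaged at least 100 normalized counts on the higher side and moved alike on both backgrounds numbered 398 higher and 229 lower, including the 7 that passed. Those described are from the 15 with the smallest p in each direction. Csf2, encoding the cytokine GM-CSF, had 1921 and 2606 normalized counts in KO cells and 1131 and 291 in IL4-/-KO cells, against 173 and 154 in WT cells and 42.1 and 137 in IL4-/- cells. Its difference was 3.33 ± 0.54 (limma adjusted p = 0.126), and IL4-/-KO replicate 2 stood nearest to the sufficient cells. Gcg, the preproglucagon gene, had 142 and 158 in KO cells and 290 and 109 in IL4-/-KO cells, against 0 in both WT and 0 and 5.80 in IL4-/- cells. Pglyrp1, a peptidoglycan-binding protein gene, gave 1.64 ± 0.25 with 2127 to 2939 counts in deleted and 559 to 1050 in sufficient replicates. Dtx1, which encodes a ubiquitin ligase linked to Notch signalling and T cell anergy, gave 1.75 ± 0.29. Podnl1 (2.20), Ptpn5 (2.90), Tspan32 (1.37), Coq8a (1.23), Ly6c2 (1.96) and Serpinb9b made up the rest. Serpinb9b has near-identical neighbours, so its reads are uncertain. Its values were 10150 and 86.4 in KO cells and 170.0 and 170.4 in IL4-/-KO cells, against 0 in 3 sufficient replicates and 0.644 in the other.

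On the lower side, Slc26a4, an anion exchanger gene, had 0 reads in all 4 deleted replicates, against 42.2 and 60.7 normalized counts in WT cells and 56.7 and 324 in IL4-/- cells. Its mean was at least 37.9-fold lower in deleted cells, taken against 3 reads per library, or at least 16.7-fold without IL4-/- replicate 2. Apol9b had 45.7 and 176 normalized counts in KO cells and 54.9 and 75.1 in IL4-/-KO cells, against 1241 and 1162 in WT cells and 689 and 607 in IL4-/- cells, a difference of -3.52 ± 0.47. Its close copy Apol9a gave -3.27 ± 0.57, and reads of the pair may have been split between them. Cd55, a complement regulator gene, gave -1.85 ± 0.33. Kcnip2, a potassium channel-interacting protein gene, was at 0 in 3 deleted replicates and 5.94 in IL4-/-KO replicate 1, against 48.7 to 173 in sufficient ones. Gulp1, an engulfment adaptor gene, ran from 0 to 5.05 in deleted and from 93.2 to 299 in sufficient replicates. Arhgap29 (2.17 to 35.5 in deleted and 176 to 873 in sufficient replicates), Arhgap39 (a difference of -1.86) and Aldh6a1 (-1.64) were also among them. The Aldh6a1 value depends on the library, with 0.849 and 4.73 in the repeat KO libraries and 294 and 386 in the first ones, and a difference of -4.50 with the repeats only and -1.15 with the first only.

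The list of 18 cytotoxic effector genes and NK receptors was mixed. Counting Klrg1, 3 of the 18 members were higher without overlap, beside 2.98% of all genes. Cst7, a cystatin gene, had 6422 and 3142 normalized counts in KO cells and 3620 and 3236 in IL4-/-KO cells, against 1004 and 1071 in WT cells and 2322 and 692 in IL4-/- cells. Serpinb9, which encodes an inhibitor of granzyme B, gave 2.22 ± 0.66, with 59942 in KO replicate 1 and 4779 to 13189 in the other deleted replicates, against 2470 to 4294 in sufficient ones. The list had 12 members higher and 6 lower and a median of 0.33, which ran from -0.35 to 0.96 over the alternatives. Gzmb, encoding granzyme B, ran from 3933 to 76533 in deleted and from 1942 to 10602 in sufficient replicates, with the highest value in KO replicate 1. Klrd1 (0.01), Prf1 (0.09) and Klrk1 (-0.59) gave no separation.

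Among helper programmes, 13 of 18 type 1 genes were higher and 5 lower, with 6 higher at an unadjusted p under 0.05, beside 4.71% of all genes, and a median of 0.70 that ran from 0.12 to 0.86 over the alternatives. Their median was 1.31 between KO and WT and 0.29 between IL4-/-KO and IL4-/-. Tbx21, the type 1 master regulator gene, had 13340 and 14205 normalized counts in KO cells and 10174 and 12626 in IL4-/-KO cells, against 2787 and 9708 in WT cells and 4256 and 4670 in IL4-/- cells, a difference of 1.37 ± 0.35 (limma adjusted p = 0.32). The chemokine gene Ccl5 gave 1.70 ± 0.44 and the IL-18 receptor gene Il18rap 1.57 ± 0.47, both with overlap. Ifng ran from 5209 to 34790 in deleted and from 3733 to 9012 in sufficient replicates.

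Of 15 tested type 2 genes, 12 were higher and 3 lower, with a median of 0.67 that ran from 0.37 to 1.16 over the alternatives. Their median was 1.32 between KO and WT and 0.17 between IL4-/-KO and IL4-/-. Il5, encoding a type 2 cytokine, had 525 and 3660 normalized counts in KO cells and 681 and 15.2 in IL4-/-KO cells, against 35.6 and 38.3 in WT cells and 16.2 and 0.644 in IL4-/- cells. IL4-/-KO replicate 2 lay within the range of sufficient cells, and the difference of 4.75 ± 1.28 had an adjusted p of 0.332 by limma. Il1rl1, the IL-33 receptor gene, gave 1.35 ± 0.42 and the growth factor gene Areg 1.69 ± 0.57. With Il4 intact and without it, Il1rl1 gave 2.01 and 0.69 and Areg 2.57 and 0.81. The chemokine receptor gene Ccr8 stood apart in the other direction, with 999 and 1350 in KO cells and 2514 and 849 in IL4-/-KO cells, against 4065 and 8967 in WT cells and 4161 and 2762 in IL4-/- cells, at -1.80 ± 0.43. Of 13 type 17 genes, which include Ahr, 9 were lower and 4 higher, with a median of -0.84 that came to -0.26 without WT replicate 1 and IL4-/- replicate 2. Batf, a transcription factor gene of that list, gave 1.84 ± 0.35 without overlap.

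Genes known from regulatory T cells were mostly higher in the deleted cells, although cells positive for CD25, the product of Il2ra, had been sorted away. Il2ra itself had 4201 and 1636 normalized counts in KO cells and 4053 and 2430 in IL4-/-KO cells, against 400.4 and 1089 in WT cells and 1717 and 1896 in IL4-/- cells, with overlap and a difference of 1.39 ± 0.44 (limma adjusted p = 0.421). Of 12 genes, 9 were higher and 3 lower, 7 were higher at an unadjusted p under 0.05, beside 4.71% of all genes, and the median was 1.17, which ran from 0.98 to 1.40 over the alternatives. Of the list, only Izumo1r passed the test. Tnfrsf9, the 4-1BB costimulatory receptor gene, had 14955 and 9976 normalized counts in KO cells and 13757 and 5057 in IL4-/-KO cells, against 3335 and 2023 in WT cells and 3464 and 2231 in IL4-/- cells, a difference of 1.91 ± 0.36 (limma adjusted p = 0.178). Tnfrsf4, the OX40 gene, gave 1.52 ± 0.34. Foxp3, the defining factor of these cells, had 371 and 2456 in KO cells and 5327 and 1511 in IL4-/-KO cells, against 437 and 182 in WT cells and 1415 and 1141 in IL4-/- cells, and the sides overlapped at 1.46 ± 0.63 (adjusted p = 0.504). Ikzf2, another regulatory T cell factor gene, gave -0.14. Ikzf4, also on the list, gave -1.86 ± 0.74, the 1 member lower at an unadjusted p under 0.05, beside 5.02% of all genes. Batf, Il2ra, Tnfrsf9, Tnfrsf4 and Foxp3 were picked out after their values were seen.

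Cell cycle genes were also mostly on the higher side. Of 22 members, 20 were higher and 2 lower, 14 were higher at an unadjusted p under 0.05, beside 4.71% of all genes, and 7 were higher without overlap, beside 2.98% of all genes. The median was 0.75, with 0.54 to 0.93 over the alternatives. The replication gene Mcm5 had 5324 and 5410 normalized counts in KO cells and 4011 and 4439 in IL4-/-KO cells, against 2084 and 2732 in WT cells and 2994 and 1822 in IL4-/- cells, a difference of 1.01 ± 0.22 (limma adjusted p = 0.258). The mitotic gene Birc5 gave 0.90 ± 0.25, and Cdc20, an activator of the mitotic ubiquitin ligase, had 1399 to 2880 counts in deleted and 747 to 1415 in sufficient replicates. Mki67, a marker of dividing cells, gave -0.12, with 134 to 5100 in deleted and 126 to 2637 in sufficient replicates.

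Of 20 genes of glycolysis and the hypoxia response, 16 were higher and 4 lower, 7 were higher at an unadjusted p under 0.05, beside 4.71% of all genes, and the median was 0.45, which came to 0.93 without WT replicate 1 and IL4-/- replicate 2. Their median was 0.85 between KO and WT and 0.23 between IL4-/-KO and IL4-/-. After Slc2a3, the lactate exporter gene Slc16a3 had the smallest p, with 3702 and 3725 normalized counts in KO cells and 1876 and 1140 in IL4-/-KO cells, against 551 and 610 in WT cells and 523 and 1607 in IL4-/- cells (1.68 ± 0.48). Tpi1, encoding triosephosphate isomerase, gave 1.28 ± 0.47, and its KO values of 25067 and 23191 exceeded all others, while WT replicate 1 at 13323 lay above both IL4-/-KO replicates.

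Interferon-stimulated genes lay on the lower side. Of 18 members, 17 were lower and 1 higher, 6 were lower at an unadjusted p under 0.05, beside 5.02% of all genes, 5 were lower without overlap, beside 2.00%, and the median was -0.49. Their median was -0.80 between KO and WT and -0.27 between IL4-/-KO and IL4-/-. Oas2, an antiviral RNA sensor gene, had 332 and 132 normalized counts in KO cells and 230 and 168 in IL4-/-KO cells, against 919 and 812 in WT cells and 527 and 647 in IL4-/- cells, at -1.80 ± 0.38 (limma adjusted p = 0.231). The antiviral gene Ifit3 gave -1.17 ± 0.33, the transcription factor gene Stat2 -0.84 ± 0.25 and Isg15, a ubiquitin-like modifier gene, -0.09. Genes of naive cells and lymph node homing had 12 of 15 members lower and a median of -0.57, led by Foxp1 (-0.82 ± 0.27) and Actn1 (-1.30 ± 0.49). Cd27, a costimulatory receptor gene on that list, went the other way at 0.79 ± 0.30.

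Mmp9 was the 1 gene to pass in a list of matrix proteases and their inhibitors, in which 13 of 17 tested genes were lower and 4 higher, with a median of -0.57 that came to -0.16 without WT replicate 1 and IL4-/- replicate 2. The stromelysin gene Mmp11 had 13.2 to 58.1 normalized counts in deleted and 99.8 to 251 in sufficient replicates. Mmp11 and the protease regulator gene Reck did not overlap on the lower side, beside 2.00% of all genes. Timp3, an inhibitor gene expressed by epithelium and stroma, reached 13138 in WT replicate 1, the replicate richest in epithelial markers. Tissue repair and vessel growth genes had 8 of 12 lower, with a median of -0.62 that came to 0.21 without WT replicate 1 and IL4-/- replicate 2. Vegfa, the vessel growth factor gene, gave -1.57 ± 0.68, with 5849 counts in WT replicate 1.

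Adhesion genes split. Besides the low Itgae, the integrin genes Itgb7 (0.87 ± 0.26), Itgal (0.99 ± 0.31) and Itgb2 (0.73 ± 0.28) were higher without overlap, beside 2.98% of all genes. The list had 7 higher, 8 lower and a median of -0.26. Itgb7, whose product pairs with that of Itgae or Itga4, had 29718 and 42740 normalized counts in KO cells and 28959 and 31551 in IL4-/-KO cells, against 15124 and 16474 in WT cells and 22181 and 18606 in IL4-/- cells. Of 17 cytokine signalling genes, 13 were higher and 4 lower, with a median of 0.27 that ran from 0.05 to 0.40 over the alternatives. Il2rb, a receptor chain gene for IL-2 and IL-15, had 61853 and 48933 in KO cells and 38626 and 37336 in IL4-/-KO cells, against 16803 and 28663 in WT cells and 30106 and 21108 in IL4-/- cells, at 0.96 ± 0.31. Among effector cytokine genes, Tnfsf14 (1.13 ± 0.33) was higher and Tnfsf11, encoding RANKL, lower (-1.42 ± 0.29). Both, like Csf2, were without overlap, beside 4.99% of all genes, and the median of the list was 0.02. Follicular helper genes (median 0.19), checkpoint receptors (0.32) and T cell receptor activation genes (-0.19) showed no common direction. Of these 3 lists only Nt5e and Vsir, a checkpoint ligand gene at 0.52 ± 0.23, had sides that did not overlap, beside 4.99% of all genes.

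**Figure D4:**
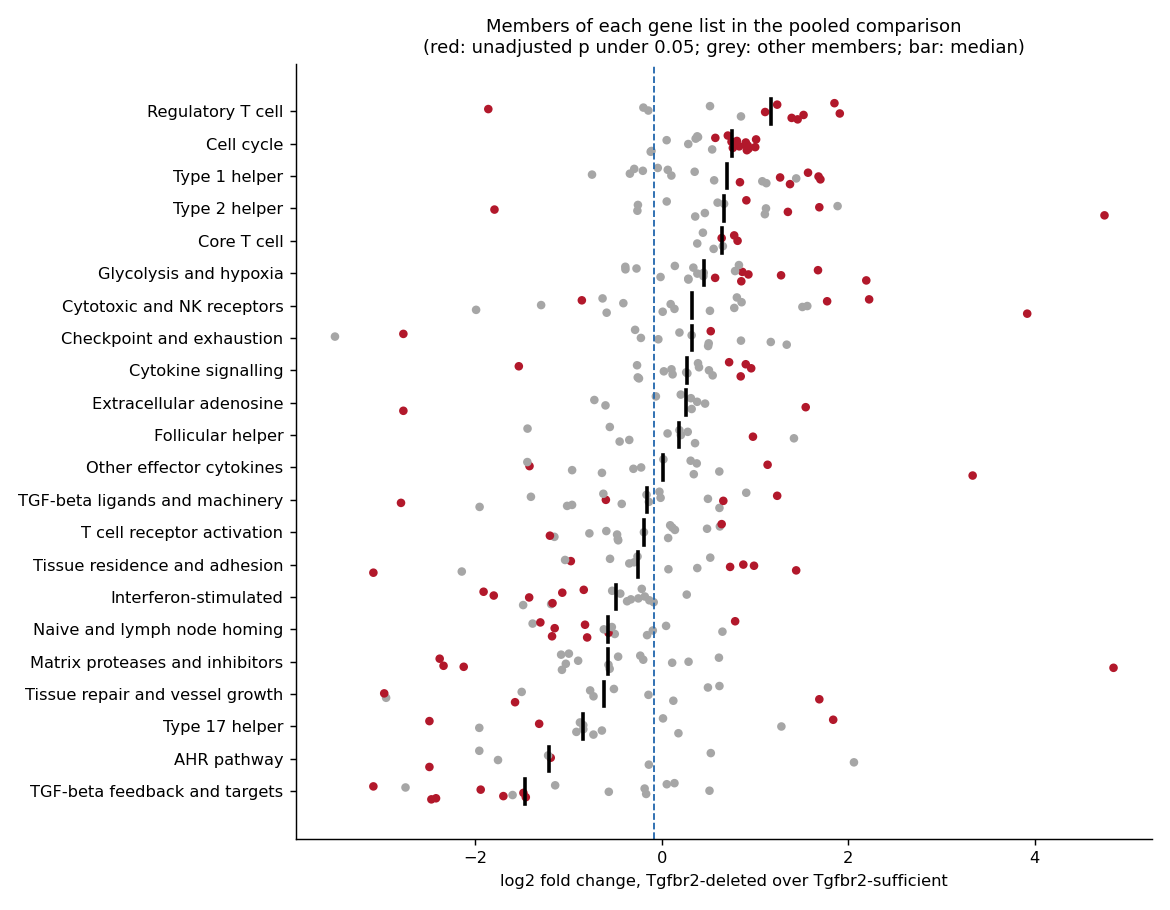
Log2 fold change, deleted over sufficient, of every tested member of the gene lists. Lists of other cell types and of heat shock genes are not shown. Medians are black bars, members at an unadjusted p under 0.05 are red, and the dashed line is the median of all genes (-0.08). Medians of the lists shown run from 1.17 for regulatory T cell genes to -1.47 for TGF-beta feedback and target genes. Single members such as Mmp9 (4.85) lie far from their list.

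The sorted cell type was read from its markers. Core T cell genes summed to 142111 to 189111 normalized counts in deleted replicates and to 81321 to 146709 in sufficient ones, and all 7 tested genes were higher, with a median of 0.64. The part of this higher T cell total in the other results was not tested. Cd4 itself gave 0.81 ± 0.29. RNA of other cells was present on both sides. Epithelial markers summed to 13191 to 111050 in deleted and to 22650 to 180444 in sufficient replicates, and macrophage markers to 24633 to 40626 in deleted and to 21906 to 123713 in sufficient ones. Of 14 tested macrophage genes, 11 were lower and 3 higher, with a median of -0.27. That median came to 0.14 without WT replicate 1 and IL4-/- replicate 2. Ly6c2 (1.96 ± 0.36) and Ccr2 (1.07 ± 0.38), among those higher, held much of the macrophage sum in deleted replicates. Of 13 tested epithelial genes, 10 were lower and 3 higher, with a median of -0.19 that came to 0.96 without WT replicate 1 and IL4-/- replicate 2. The adhesion gene Cdh1 had 1110 to 6129 in deleted and 7450 to 11251 in sufficient replicates (-1.58 ± 0.37, without overlap), and the milk protein gene Lalba 12.6 to 132 in deleted and 103 to 1384 in sufficient ones (-3.37 ± 0.98). WT replicate 1 was highest for epithelium, led by Krt18 at 55536, and IL4-/- replicate 2 for macrophages, led by Apoe at 38435. Without these 2 replicates, the TGF-beta feedback median was -0.91, the cell cycle median 0.54 and the interferon median -0.89. Klrg1 alone then passed the test, an alternative chosen after seeing the data.

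Of B cell and plasma cell markers, 5 of 6 tested were higher, and their sum of 2451 to 8773 in deleted replicates did not overlap that of 809 to 2124 in sufficient ones. Sdc1 and Jchain made up most of each sum. Sdc1 alone overlapped, at 871 to 6926 in deleted and 429 to 1967 in sufficient replicates (0.78 ± 0.67). Only Jchain had an unadjusted p under 0.05. Jchain, which encodes the joining chain of secreted antibodies, had 1700 and 1601 in KO cells and 2110 and 1134 in IL4-/-KO cells, against 30.3 and 165 in WT cells and 347 and 14.8 in IL4-/- cells, while the B cell gene Ms4a1 stayed at 0 to 43.7 in every replicate. Endothelial markers did not overlap either, at 1968 to 2495 in deleted and 1190 to 1912 in sufficient replicates, almost all of it Pecam1, which T cells also express. Of 5 eosinophil markers, 2 were tested and both were higher, with Ccr3 at 45.9 to 543 in deleted and 1.32 to 118 in sufficient replicates (2.54) and Siglecf at 0.473 to 40.4 in deleted and 0 to 12.9 in sufficient ones (2.42 ± 1.26). Neutrophil, NK cell, dendritic cell, fibroblast, mast cell, eosinophil, gamma-delta T cell, erythroid and CD8 T cell sums overlapped between the sides. Heat shock and dissociation genes, a sign of handling, summed to 250502 to 401703 in deleted and to 299950 to 390272 in sufficient replicates, and none of the 12 had an unadjusted p under 0.05.

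**Figure D5:**
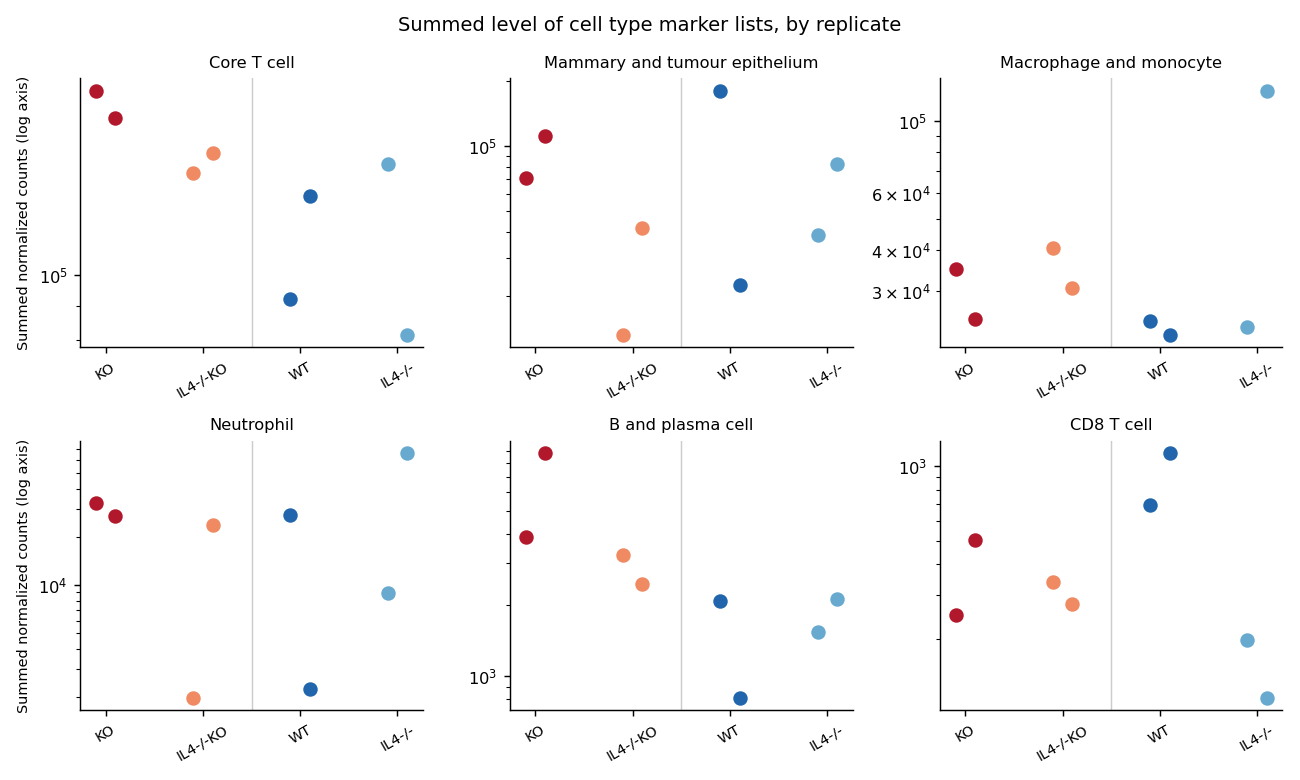
Summed normalized counts (log axis) of the markers of 6 cell types, 1 point per replicate. Core T cell sums are 142111 to 189111 in KO and IL4-/-KO against 81321 to 146709 in WT and IL4-/-, epithelial sums peak in WT replicate 1 and macrophage and neutrophil sums in IL4-/- replicate 2.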

How the data were processed

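Per the labels' protocols, total RNA of sorted CD4+CD25- tumour T cells went through SMART-Seq v4 amplification and KAPA Hyper Prep library construction. There were no molecular identifiers, so reads are not molecules. The submitters' processing notes name bcl2fastq 2.18.0, STAR, DESeq2 and the mm10 build; the read counter, its annotation and the use of strand are not given in the sources used here. The deposited signal is a normalized count per gene and library, read count over 1 size factor. All values (100%) were whole multiples of 1 read within 0.001 reads, which recovered the reads. Of 17370 rows, 7 had no gene name, held 0.0029% to 0.0205% of a library and were left out.

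Computed here: the libraries of each KO replicate were averaged, and the 14473 genes that reached 10 normalized counts in 2 or more of 8 replicates were tested on log2(normalized count + 1) by limma 3.58.1 (R 4.3.3, trended variance prior), with Tgfbr2 status and the Il4 background in the model (5 residual degrees of freedom) and a threshold of 0.05. Fold changes on this scale understate those of low genes. The interaction and the effect per background came from a fit of the 4 genotype means. edgeR 4.0.16 (quasi-likelihood test) and DESeq2 1.42.0 (Wald test) were run on the recovered reads, with KO libraries summed, as alternatives. Other alternatives changed the pseudocount, filter, scaling, variance trend, covariates, use of KO libraries, replicate block and each replicate. The pipeline was tested on simulated data.

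Named genes were Tgfbr2 and Il4, all past the threshold, the 15 per direction with the smallest p among those averaging at least 100 normalized counts on the higher side, without overlap and alike on both backgrounds, up to 3 members per gene list, all TGF-beta feedback and AHR genes, and up to 2 of the highest markers per other cell type. Some genes this rule names are not reported here. Others are said to be picked afterwards or illustrate a list. The comparison and the 36 gene lists were chosen with earlier results of these data known. Of 431 listed genes, 395 were tested. Positions come from GENCODE and RefSeq annotations of GRCm38, the mm10 build. Figures were drawn with matplotlib 3.10.9.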

Additional observations from a re-analysis of the deposited data

Results flagged for a closer look

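Of 191 checks of a gene's 4 deleted or 4 sufficient replicates, 11 had a replicate whose gap to the nearest other on the log2 scale, over the whole range, exceeded Dixon's 95% critical value. Chance gives about 1 such group in 20. Values are normalized counts.

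Among deleted replicates, KO replicate 1 stood at 10150 for Serpinb9b, against 86.4 to 170.4 in the others. IL4-/-KO replicate 1 stood at 5.94 for Kcnip2, with 0 in the others, and at 15.6 for Nqo1, against 355 to 511.

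Among sufficient replicates, IL4-/- replicate 1 stood at 16954 for Ccl5, against 3912 to 5002, at 412 for Bcl6, against 808 to 906, and at 42.1 for Csf2, against 137 to 173. IL4-/- replicate 2 stood at 5.80 for Gcg and 0.644 for Serpinb9b, with 0 in the others. WT replicate 1 stood at 7526 for Itgal, against 16663 to 19278, and at 17.1 for Cyp1a1, with 0 in the others. WT replicate 2 stood at 1785 for Il21, against 75.1 to 121.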

How the results depend on the processing

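The 7 calls became 12 under quantile normalization, 24 with the epithelial list mean as a covariate and 257 by DESeq2, each including the 7. They became 2 without the variance trend, 3 with 1 mean per genotype, 2 with repeat KO libraries only, 3 with the macrophage list mean as a covariate and 3 by edgeR. First KO libraries only gave 7 calls, with Apol9b in place of Pmepa1. Leaving out each replicate gave 1 to 6 calls, and leaving out WT replicate 1 and IL4-/- replicate 2, chosen after seeing the data, gave 1 (Klrg1). The replicate block gave 3 calls (Klrg1, Mmp9 and Ahr). Deviations of same-numbered replicates correlated at -0.36 to 0.24 between genotypes, so the numbers were not taken to pair samples. Genes at an unadjusted p under 0.05 numbered 2698 with the epithelial covariate. Genes without overlap numbered 730 to 1543 with a replicate, or only the second library of KO replicate 2, left out, and 2777 without those 2 replicates. For the interaction, DESeq2 called 39 genes. The cause of these shifts was not tested, except that fewer replicates make non-overlap more frequent by construction. With first KO libraries only, depth set and Il4 background coincide, so no separate term for depth could be fitted there.

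Of the 96 genes of the text that were checked, 11 turned sign in some alternative, and none of the 11 passed. With each replicate left out in turn, Il4 ran from -0.075 to 0.78, Smad6 from -2.99 to 0.19, Smurf1 from -0.47 to 0.14, Bambi from -0.49 to 0.094, Tgfbi from -0.83 to 1.31, Cdkn2b from -0.21 to 0.44 and Cyp1b1 from -3.36 to 0.43. Without both WT replicate 1 and IL4-/- replicate 2, Il4 gave -0.073, Zfp36 0.34, Atf3 0.60, Smad6 1.85, Bambi 0.29, Ctgf 0.74 and Nqo1 0.18. Tgfbi gave -0.035 with repeat KO libraries only, -0.657 by edgeR and -0.65 by DESeq2. Cdkn2b gave -0.019 with first KO libraries only and -0.019 with all 10 libraries and a term for depth.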

Other observations

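A cluster of protease inhibitor genes lay on the higher side, picked out after its values were seen. Of 6 tested genes within 250000 bases of Serpinb9 on chromosome 13, all 6 were higher in deleted cells and 4 did not overlap, beside 2.98% of all genes. Serpinb1a had 23339 and 3283 normalized counts in KO cells and 5792 and 5401 in IL4-/-KO cells, against 2035 and 1064 in WT cells and 1398 and 1650 in IL4-/- cells. Serpinb6b had 13046 and 1210 in KO cells and 2865 and 2106 in IL4-/-KO cells, against 514 and 1071 in WT cells and 659 and 504 in IL4-/- cells. These genes are close copies, so reads may be shared among them, KO replicate 1 was highest for all 4, and none passed the adjusted threshold.

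Zbtb7b, the gene whose regulatory sequence drives the Cre, was read because Cre was on the deleted side only. It had 1145 and 1317 normalized counts in KO cells and 1250 and 1491 in IL4-/-KO cells, against 835 and 693 in WT cells and 997 and 761 in IL4-/- cells, a difference of 0.67 ± 0.22 (limma adjusted p = 0.428). Of 26 tested genes within 250000 bases of it, 20 were higher and 4 did not overlap on the higher side (15.4%, beside 2.98% of all genes), among them Krtcap2, Slc50a1 and Zbtb7b itself, and 2 did not overlap on the lower side, beside 2.00% of all genes. The part of the ThPOKCre transgene in these values was not tested.

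Some genes were at or under 3 reads throughout a side while every replicate of the other held at least 10 normalized counts. There were 5 such genes with reads on the deleted side (Serpinb9b, Scg2, Slc17a6, Gm19589 and Noxred1) and 6 on the sufficient side (Slc26a4, Ttll10, 2900011O08Rik, E030013I19Rik, Gm6455 and Kcnrg). Scg2, encoding the neuroendocrine granule protein secretogranin II, had 76.1 and 15.8 in KO cells and 40.1 and 85.9 in IL4-/-KO cells, against 0 in all 4 sufficient replicates. Its mean was at least 17.7-fold higher in deleted cells, taken against 3 reads per library. Slc17a6, a vesicular glutamate transporter gene, had 269 and 12.5 in KO cells and 57.9 and 94.6 in IL4-/-KO cells, against 0 in all 4 sufficient replicates, and its mean was at least 35.4-fold higher, or at least 17.9-fold without KO replicate 1. None of these genes passed the adjusted threshold.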
